A study of Mus musculus with 55 samples.

Results

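The clustered histone genes of the mouse were followed in single oocytes. Membership was by symbol alone: every gene of the count tables whose symbol begins with Hist1h, Hist2h, Hist3h or Hist4h was taken, which gave 70 of 51734 genes. Of these, 6 encode linker histone H1, 20 encode H2A, 19 encode H2B (1 of them, Hist3h2bb-ps, carries a pseudogene symbol), 12 encode H3 and 13 encode H4. On the mm10 genome, 56 lie on chromosome 13, between positions 21715763 and 51203065, 10 on chromosome 3 between 96219865 and 96270132, 3 on chromosome 11 between 58948920 and 58956830, and Hist4h4 alone on chromosome 6, at 136801553 to 136804415.

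The core histones H2A, H2B, H3 and H4 wrap DNA into nucleosomes, and H1 binds the linker DNA between them. In dividing cells the clustered genes are switched on during DNA replication, and their mRNAs end in a conserved stem-loop, bound by the protein SLBP, where other mRNAs carry a poly(A) tail. The growing oocyte stores histone mRNA and protein for the first divisions of the embryo, and its transcription falls to a very low level by the end of growth.

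Each library was made from 1 cell. There were 18 wild-type fully grown oocytes (FGOs), 8 Dnmt3L ADD/ADD FGOs (Dnmt3L D124A on both alleles, Dnmt3a wild-type), 8 Dnmt3a ADD/ADD FGOs (Dnmt3a D525A and D527A on both alleles, Dnmt3L wild-type), 8 double mutant FGOs with both changes on both alleles, and 10 wild-type oocytes at metaphase of the second meiotic division (MII). DNMT3A is a DNA methyltransferase and DNMT3L its cofactor, and the substitutions lie in the ADD domain, with which both proteins bind histone H3 that is unmethylated at lysine 4. The mutant alleles were made by genome editing and were present in every cell of the animal, not in the oocyte alone. The FGO donors were adults of 10 to 12 weeks, the cumulus layer had been washed off their oocytes, and the FGOs had been frozen together in pools. The study's methods for obtaining MII oocytes, given for its fertilization work, name females of a wider and partly older age range that received inhibin antiserum and human chorionic gonadotropin. FGO and MII libraries therefore differ in how they were obtained as well as in stage. The number of animals behind each group was not given in the sources used here, so that p-values measure the spread between libraries.

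Libraries held 7832458 to 23739871 counts on genes, with a median of 14410784. The oocyte markers (14 genes, such as Gdf9 and Zp3) summed to a median of 12477 CPM, counts scaled to the size of the library, in wild-type FGOs, 10773 in the Dnmt3L mutant, 10050 in the Dnmt3a mutant, 14264 in the double mutant and 10416 in MII oocytes. The study's sequencing summary places each library under or above 80% mapped reads. All 8 double mutant libraries were under 80% and all 8 Dnmt3L ADD/ADD libraries were above it, whereas wild-type FGOs (8 under, 10 above), Dnmt3a ADD/ADD FGOs (3 and 5) and MII oocytes (3 and 7) were split. Values within a class are therefore given beside part of the results that differed by class. A list of 19 granulosa and cumulus genes, markers of the cells that surround the oocyte, summed to medians of 198 CPM in wild-type FGOs, 160 in the Dnmt3L mutant, 167 in the Dnmt3a mutant, 142 in double mutant and 124 in MII libraries. No 2 libraries of a group agreed within counting noise.

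The libraries were primed on poly(A), so the levels below are those of the histone RNA that such priming captured and not of all histone mRNA. The stem-loop was looked for in the GENCODE M21 transcript models on the sense strand, as 6 bases that begin with GG and end with T, any 4 bases, and then the 6 bases that pair with the first 6. It was present in 46 of the 70 genes: 4 of 6 H1, 11 of 20 H2A, 10 of 19 H2B, 9 of 12 H3 and 12 of 13 H4 genes. The same search matched 1.27% of 58725 protein-coding transcripts of other genes. The stem-loops of 7 genes with high levels or large changes are given here, because this element is what sets the mRNAs of the family apart. Each is the 26 bases around the match in mm10, 5′ to 3′, with the 16 bases of the stem-loop in capitals.

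Hist1h1d, chr13:23555782-23555807, plus strand: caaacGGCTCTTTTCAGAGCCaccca
Hist3h2a, chr11:58955167-58955192, plus strand: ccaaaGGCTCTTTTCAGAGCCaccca
Hist1h2bk, chr13:22036295-22036320, plus strand: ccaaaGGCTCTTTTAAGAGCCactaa
Hist1h3b, chr13:23752815-23752840, plus strand: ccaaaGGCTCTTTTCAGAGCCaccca
Hist1h3f, chr13:23544927-23544952, plus strand: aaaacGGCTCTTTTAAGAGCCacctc
Hist1h4c, chr13:23698084-23698109, minus strand: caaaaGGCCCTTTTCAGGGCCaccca
Hist4h4, chr6:136803993-136804018, minus strand: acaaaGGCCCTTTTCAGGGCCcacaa

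In all, 8 forms of the stem-loop were found. The form of Hist1h1d, Hist3h2a and Hist1h3b was shared by 26 genes, none of them an H4 gene. The form of Hist1h4c and Hist4h4 was carried by 7 genes, all of them H4. Hist1h1a, Hist1h2aa, Hist1h2ba, Hist1h2bc and Hist1h1b had no match, which says only that these letters are not in their annotated transcripts. Genes whose GENCODE model ran on for more than 100 bases past the stem-loop (23 genes) had a median of 11.1 CPM per kilobase in wild-type FGOs. Genes whose model ended within 100 bases of it (23 genes) had 1.45. Reads were counted over the deposited models, which can differ: Hist1h1d has 7425 bases in GENCODE and 744 in the deposited model. The levels are therefore not those of the long models themselves. Both sets began at 0, and their highest values were 129 (Hist1h4c) and 94.1 (Hist1h2bk), so the ranges overlapped. The 24 genes without a match had a median of 0.831, with Hist1h1a the highest at 608.

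Much of the family cannot be told apart by short reads. The study's methods give 53 bases for each read of a pair in sequencing and a longer read in the alignment step, and the shares given here are for single stretches of 53 bases. By this measure 36 of the 70 genes had fewer than 50% of their 53-base stretches to themselves, counting all annotated transcripts on both strands. The median share of unique stretches was 99.0% for H1, 63.4% for H4, 56.6% for H2B, 38.2% for H3 and 27.2% for H2A. All 20 H2A genes also overlap an annotated entry on the opposite strand, which unstranded reads do not separate, and Hist3h2a shares exons on its own strand with Trim17. The 5 genes at 0 in all 52 libraries had no unique stretch at all. In contrast, Hist1h1a and Hist1h1b had only unique stretches and no overlapping entry.

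The level of the family differed widely between its members and was led by few genes. In wild-type FGOs the summed level of all 70 genes was lowest at 836, median 1046 and highest at 1194 CPM. The 10 most counted genes held 84.4% of that sum, and Hist1h1a, which encodes a linker histone, alone held 37.9%. By type, with levels per kilobase of transcript so that genes can be compared, the mean sum over libraries was 672 ± 105 CPM per kilobase (SD, n = 18) for H1, 496 ± 52.4 for H2B, 268 ± 63.2 for H4, 226 ± 31.4 for H2A and 103 ± 25 for H3. H4 and H2A are neighbours in this order whose means differed by less than the SD of H4. In MII oocytes the order was the same, at 708 ± 66.2 (SD, n = 10), 407 ± 25.6, 212 ± 16.6, 170 ± 23.2 and 88.8 ± 10.7 CPM per kilobase.

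**Figure D1:**
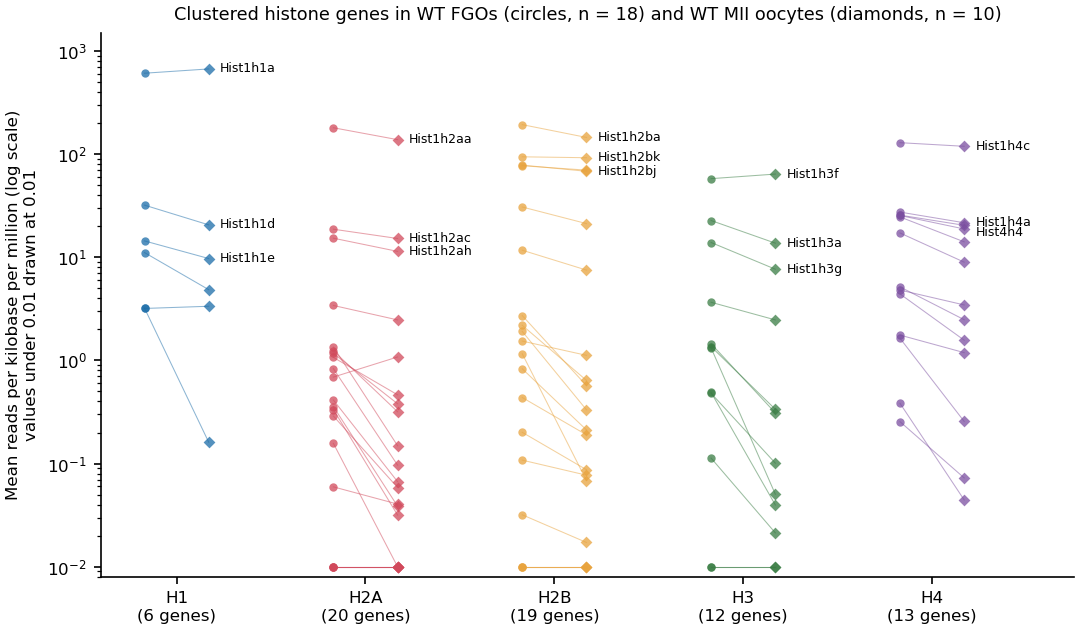
Level of each clustered histone gene (mean CPM per kilobase, log axis) by histone type in wild-type FGOs and MII oocytes, 1 point per gene, with values under 0.01 drawn at 0.01. Hist1h1a, at 608 in FGOs and 669 in MII oocytes, stands above all other members, and most H2A and H3 genes lie far below the leading gene of their type.

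Within each type 1 to 3 genes carried most of the level. Hist1h1a stood at 608 CPM per kilobase in wild-type FGOs, and the next linker histone genes, Hist1h1d and Hist1h1e, at 32 and 14.4. Among H2A genes Hist1h2aa led with 180, followed by Hist1h2ac with 18.7 and Hist1h2ah with 15.3. Hist1h2aa and its neighbour Hist1h2ba encode the testis- and oocyte-enriched variants TH2A and TH2B. Hist1h2ba led the H2B genes with 193 CPM per kilobase, but Hist1h2bk at 94.1 and Hist1h2bj at 78.2 were closer to it than the second H2A gene was to Hist1h2aa. For H3 the leading genes were Hist1h3f at 57.8, Hist1h3a at 22.7 and Hist1h3g at 13.9. For H4 they were Hist1h4c at 129, Hist1h4a at 27.4 and Hist4h4 at 25.6. The H4 order depends on the deposited lengths, 2863 bases for Hist4h4 and 395 for Hist1h4c. By reads without length, Hist4h4 was above Hist1h4c in every group. The leader of every type was the same gene in MII oocytes, at 669, 138, 145, 64.0 and 119 CPM per kilobase for Hist1h1a, Hist1h2aa, Hist1h2ba, Hist1h3f and Hist1h4c.

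The promoters of 3 genes are given here: those of Hist1h1a and Hist1h2aa, leaders of their types, and that of Hist1h1b, the linker histone gene with the lowest adjusted p of the family during maturation. The sequences are from RefSeq (GRCm38.p6, the mm10 build) and run 5′ to 3′ on the strand of the gene, from 250 bases before to 50 bases after the annotated start. Capitals mark the CCAAT box, then the TATA box, searched as TATAAA, and the octamer, searched as ATTTGCAT, each on either strand.

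Hist1h1a, chr13:23763418-23763717, plus strand: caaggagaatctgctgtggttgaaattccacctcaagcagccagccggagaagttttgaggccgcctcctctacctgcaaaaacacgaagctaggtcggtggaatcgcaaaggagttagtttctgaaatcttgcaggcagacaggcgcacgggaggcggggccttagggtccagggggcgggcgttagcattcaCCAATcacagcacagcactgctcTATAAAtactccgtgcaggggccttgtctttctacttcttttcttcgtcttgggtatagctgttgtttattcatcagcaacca
Hist1h2aa, chr13:23934187-23934486, plus strand: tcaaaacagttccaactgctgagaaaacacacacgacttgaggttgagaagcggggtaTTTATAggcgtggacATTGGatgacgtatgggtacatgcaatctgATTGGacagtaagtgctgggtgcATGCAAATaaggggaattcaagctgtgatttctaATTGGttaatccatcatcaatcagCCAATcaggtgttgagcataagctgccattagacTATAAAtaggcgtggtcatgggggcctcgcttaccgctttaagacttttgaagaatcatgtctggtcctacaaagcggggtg
Hist1h1b, chr13:21780576-21780875, minus strand: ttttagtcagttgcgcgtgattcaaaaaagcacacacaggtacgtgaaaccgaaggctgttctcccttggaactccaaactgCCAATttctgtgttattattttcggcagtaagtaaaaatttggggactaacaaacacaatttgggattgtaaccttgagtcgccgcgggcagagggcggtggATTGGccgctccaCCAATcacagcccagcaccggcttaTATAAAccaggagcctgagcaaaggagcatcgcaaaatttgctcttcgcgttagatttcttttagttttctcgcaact

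All 3 had a TATAAA close upstream of the start, beginning at position -33 in Hist1h1a, -32 in Hist1h2aa and -28 in Hist1h1b, and a CCAAT on the same strand at -56, -66 and -53. Hist1h2aa is transcribed away from Hist1h2ba, and the shown window also held a TATAAA on the opposite strand at -192 and an octamer on the opposite strand at -124. Of the 62 members with a RefSeq promoter, 85.5% held CCAAT on either strand, against 37.9% of all 27025 promoters of this length. CCAAT was in every H1, H2A, H2B and H3 promoter and in 3 of 12 H4 promoters. TATAAA was in 56.5% of members against 14.2% of all promoters. The octamer was in 7 of 18 H2A and 6 of 16 H2B promoters, in 0 of those of the other types, and in 1.8% of all promoters. A match is a string of letters and not a measured binding site, and the search did not bear on how any gene was expressed here.

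The maturation comparison asked how the captured histone RNA differed between MII oocytes and FGOs of wild-type animals. Calls among the clustered histone genes went one way: of 40 members with enough reads to be tested, 25 fell at an adjusted p below 0.05 and 0 rose. The largest falls were those of Hist1h1b, Hist1h3b and Hist3h2a, genes of low level with medians of 33, 11 and 12 counts in FGOs and 0, 0 and 1 in MII oocytes. At such counts a gene passed the filter on low counts only through the FGOs, which favours the finding of a fall. In the leading genes the difference was small or not called. With the added demand of a fold change above 2, 13 of 40 members fell (32.5%), against 9.0% of all 15784 genes tested. In the other direction 0 rose, against 0.196%. The limit from the filter bears on this share too. Among the other genes that fell, median MII counts were 1.5 for Hist1h2bn, 2 for Hist1h3d and 3 for Hist1h2bm, but 14 for Hist1h4n. At adjusted p alone the 25 members were 62.5% of those tested, against 22.6% of all genes that were lower and 16.5% that were higher (edgeR quasi-likelihood test, Benjamini-Hochberg adjustment over all genes). In the higher direction, 0 members had even an unadjusted p below 0.05, and DESeq2 and edgeR's exact test also called 0. The median log2 fold change of the 40 members was -0.57, that of all genes tested was -0.05, and 37 of 40 members were below 0. The 30 members that were not tested had too few reads. Falls at adjusted p were spread over the types: 3 of 6 H1, 3 of 6 H2A, 7 of 11 H2B, 5 of 7 H3 and 7 of 10 H4 genes tested.

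**Figure D2:**
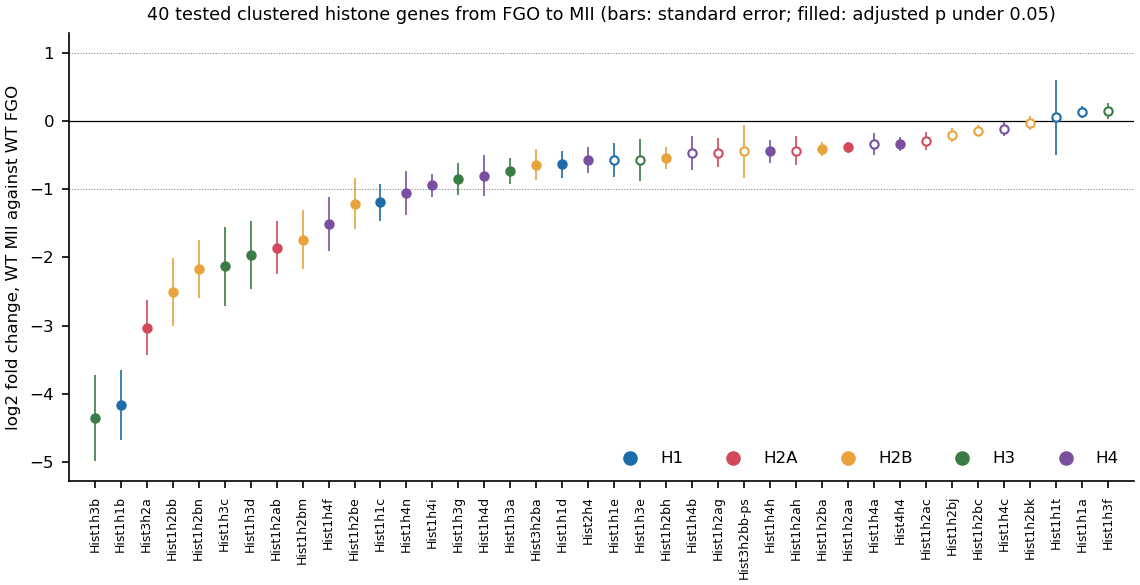
Log2 fold change of each of the 40 tested clustered histone genes, wild-type MII oocytes against wild-type FGOs. Genes are ordered by log2 fold change and coloured by histone type, with bars for 1 standard error. Hist1h1b, Hist1h3b and Hist3h2a lie lowest, at -4.17, -4.36 and -3.03, and 37 of the 40 points lie below 0.

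Hist1h1b, a somatic linker histone gene, had the lowest adjusted p. Its level ran from 0.425 to 6.59 CPM in the 18 wild-type FGOs, with a median of 2.23, and from 0 to 0.599 in MII oocytes, with a median of 0. The gene was counted in every FGO, by 6 to 116 reads, and was at 0 in 7 of 10 MII libraries, the highest of which had 8 reads. The log2 fold change was -4.17 (SE 0.51, adjusted p = 2.99e-09), 9 of 10 MII libraries lay below the lowest FGO, and the groups met only through the highest MII library. Within the libraries above 80% mapped reads it was -4.78 (adjusted p = 1.04e-07), and within those under 80% it was -3.22 (adjusted p = 0.018).

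Hist1h3b, which encodes a replication-dependent H3, showed a like pattern at lower counts. FGOs ran from 0.133 to 3.18 CPM with a median of 0.703, and MII oocytes from 0 to 0.145 with a median of 0, again with 7 of 10 at 0 and at most 2 reads in a library. The log2 fold change was -4.36 (SE 0.63, adjusted p = 2.65e-07), and 9 of 10 MII libraries were below the lowest FGO. Hist3h2a, an H2A gene on chromosome 11, ran from 0.271 to 1.36 CPM with a median of 0.763 in FGOs and from 0 to 0.311 with a median of 0.0701 in MII oocytes. It fell by 3.03 on the log2 scale (SE 0.41, adjusted p = 5.33e-08), with 9 of 10 MII libraries below the lowest FGO and 4 at 0, although reads of Trim17 on the same strand may be among those counted.

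The other 10 genes that fell by more than the fold of 2 were 4 H2B genes (Hist1h2bb, Hist1h2bn, Hist1h2bm and Hist1h2be), the H3 genes Hist1h3c and Hist1h3d, the H2A gene Hist1h2ab, the H4 genes Hist1h4f and Hist1h4n, and the linker histone gene Hist1h1c. Their log2 fold changes ran from -2.51 (Hist1h2bb, SE 0.50, adjusted p = 8.89e-05) to -1.05 (Hist1h4n, SE 0.32, adjusted p = 0.00802). Of these, Hist1h1c was the gene with most reads. Hist1h1c ran from 7.0 to 38.4 CPM in FGOs with a median of 14.4, and from 3.11 to 17.2 in MII oocytes with a median of 5.46, and it fell by 1.19 on the log2 scale (SE 0.27, adjusted p = 0.00036) with overlapping groups. Hist1h2bb ran from 0.089 to 3.24 CPM with a median of 0.686 in FGOs and from 0 to 0.467 with a median of 0.14 in MII oocytes, which also overlapped. Hist1h2ab was close to the filter on low counts: without wild-type FGO 8, 11, 15 or 16 it was not tested.

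The 12 members that fell by less than that fold included the variants TH2A and TH2B. Hist1h2aa ran from 55.2 to 89.8 CPM with a median of 68.6 in FGOs and from 35.5 to 62.5 with a median of 55.1 in MII oocytes. Its log2 fold change was -0.38 (SE 0.08, adjusted p = 0.000229), with 10 of 10 MII libraries below the FGO median. Hist1h2ba ran from 52.5 to 91.1 with a median of 74.4 in FGOs and from 42.4 to 68.6 with a median of 56 in MII oocytes, a log2 fold change of -0.41 (SE 0.10, adjusted p = 0.000557), also with 10 of 10 below the FGO median. Both pairs of groups overlapped. Among H4 genes, Hist1h4i fell by 0.94 on the log2 scale (SE 0.17, adjusted p = 2.58e-05) from a median of 9.88 to 6.67 CPM, but by 0.37 (adjusted p = 0.0582) within the libraries above 80% mapped reads and by 1.64 (adjusted p = 0.00043) within those under 80%. Other falls also differed by class. In wild-type libraries under 80% mapped reads, the Hist1h4h medians were 16.3 CPM in FGOs and 7.76 in MII oocytes. Above 80% they were 8.7 and 8.97. Those of Hist1h2bh were 16 and 8.01 under 80%, and 8.81 and 8.48 above. Those of Hist4h4 were 89.7 and 57.5 under 80%, and 61.5 and 58.5 above. The calls of Hist1h4d and Hist1h4h could be lost by leaving out 1 library. Hist1h4d lost its call without wild-type FGO 1 or MII library 1, 6 or 7 (highest adjusted p = 0.063), and Hist1h4h lost it without wild-type FGO 1, 4, 5, 6 or 7 or MII library 1, 6 or 10 (highest adjusted p = 0.0806).

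The most abundant members were among those not called. Hist1h1a ran from 253 to 527 CPM with a median of 388 in FGOs and from 395 to 516 with a median of 418 in MII oocytes, a log2 fold change of 0.14 (SE 0.09, adjusted p = 0.236). For Hist1h3f, which encodes H3, the medians were 48.7 and 52.3 CPM and the log2 fold change 0.15 (SE 0.12, adjusted p = 0.333). Hist1h4c stood at medians of 51.3 and 48.8 (log2 fold change -0.11, SE 0.11, adjusted p = 0.452) and Hist1h2bk at 43.3 and 42.5 (-0.03, SE 0.10, adjusted p = 0.819). Hist1h1t, the testis-specific linker histone gene, had a log2 fold change of 0.06 with an SE of 0.55 (adjusted p = 0.938), so that a change by a fold of 2 could not be told from none.

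**Figure D3:**
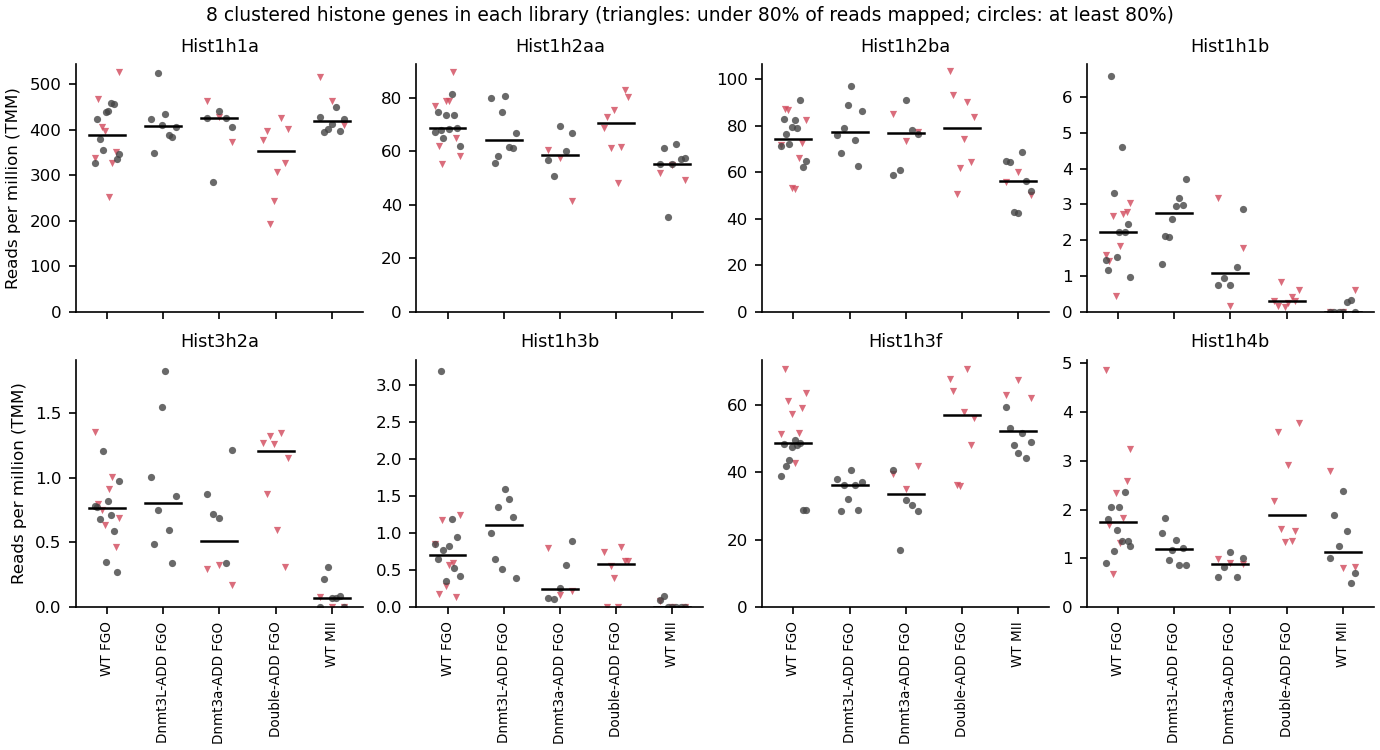
CPM of 8 clustered histone genes in each of the 52 libraries by group, with triangles for libraries under 80% mapped reads, circles for those above, and a bar at the group median. Hist1h1b drops to a median of 0.305 in double mutant FGOs and to 0 in MII oocytes, against 2.23 in wild-type FGOs, while Hist1h1a changes little between groups.

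Summed over all members, MII oocytes ran from 852 to 1043 CPM with a median of 932, inside the FGO range of 836 to 1194 with a median of 1046. Without Hist1h1a the medians were 516 and 621, and the share of Hist1h1a in the sum was 45.7% in MII oocytes and 37.9% in FGOs. The medians by type were 448 in MII oocytes and 456 CPM in FGOs for H1, 70.4 and 88.8 for H2A, 196 and 237 for H2B, 66.6 and 71 for H3, and 142 and 166 for H4. Every pair of ranges overlapped, and these sums carry no test.

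**Figure D4:**
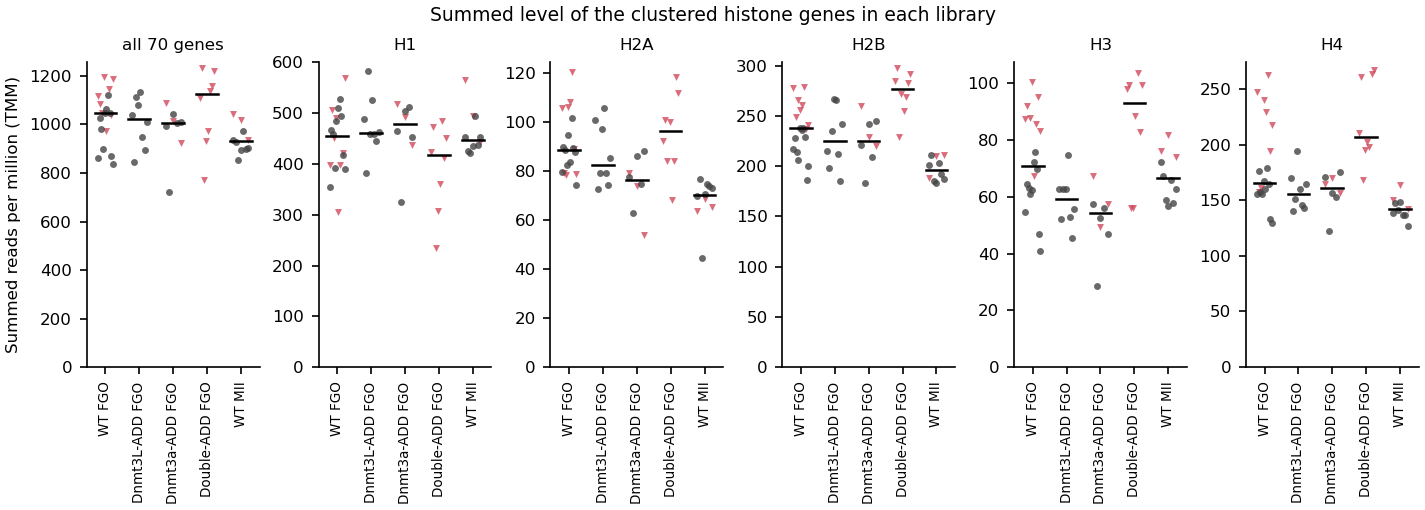
Summed level of the clustered histone genes (CPM) in each library by group, with triangles for libraries under 80% mapped reads, circles for those above, and a bar at the median. Group medians run from 932 in MII oocytes to 1125 in double mutant FGOs, and the ranges of all 5 groups overlap.

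Markers of the surrounding cells moved with the maturation result. Of 19 granulosa and cumulus genes, 17 were tested, 12 fell and 1 rose, with a median log2 fold change of -3.38. Their summed level ran from 148 to 350 CPM in wild-type FGOs and from 116 to 149 in MII oocytes. This sum fell less than the median gene of the list did, so it cannot stand for the amount of RNA from these cells. Inha, which encodes an inhibin subunit of granulosa cells, had a median of 7.55 CPM in FGOs and was at 0 in 7 of 10 MII libraries, and Amh and Inhbb were at 0 in all 10. The part of these cells in the falls of low-level histone genes such as Hist1h1b was not tested. A list of 11 genes of dividing cells held Mki67, Top2a and Pcna among others. Its summed medians were 2053 CPM in FGOs and 2092 in MII oocytes. At adjusted p, 4 of the 11 rose, and the 1 that fell did so by a fold above 2. Reads of the oocyte and of adhering cells were not separated, so this sum cannot show whether adhering dividing cells changed. For single cells of this kind, fewer adhering cells and less RNA per cell cannot be told apart. Within the libraries above 80% mapped reads, 16 of 42 members fell (38.1%, against 12.2% of all genes), 13 of them with a fold above 2 (31%, against 4.92%). Within those under 80%, 14 of 40 fell (35%, against 10.5%), 8 of them with a fold above 2 (20%, against 6.55%), and 0 members were higher in either class, against 10.5% and 8.54% of all genes at adjusted p.

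The first of the mutant comparisons asked what the Dnmt3L change alone did. Among 42 members tested, 0 passed with a fold change above 2, against 0.591% of all 15726 genes that were lower and 0.0636% that were higher, and DESeq2 and edgeR's exact test also called 0 at that fold. At adjusted p alone 1 member fell (2.38%, against 3.06% of all genes) and 0 rose (against 3.07%). Unadjusted, 6 members were lower and 2 higher at p below 0.05, a count without a share of all genes beside it. At adjusted p, DESeq2 gave 3 lower (7.14%, against 4.35% of all genes) and 0 higher (against 3.82%). The exact test gave 2 lower (4.76%, against 3.46%) and 0 higher (against 3.39%). The median log2 fold change was -0.06 over the members and -0.03 over all genes. In the quasi-likelihood test the share of members called was thus near or under the background.

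The member called was Hist1h3f. It ran from 28.5 to 40.6 CPM with a median of 36.2 in Dnmt3L ADD/ADD FGOs and from 28.7 to 70.5 with a median of 48.7 in wild-type FGOs. The log2 fold change was -0.50 (SE 0.14, adjusted p = 0.0258), and the groups overlapped. Without Dnmt3L ADD/ADD library 2 or 7 the call was lost (highest adjusted p = 0.0624). Against the 10 wild-type FGOs of the same mapped-read class, whose median was 45.6 CPM, the difference was -0.30 (adjusted p = 0.171).

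In Dnmt3a ADD/ADD FGOs, 6 of 42 members fell at adjusted p (14.3%, against 7.61% of all genes), and 1 rose (2.38%, against 8.06%). With a fold change above 2, 3 members fell (7.14%, against 1.76%), namely Hist1h2ai, Hist1h4b and Hist1h4d, and 1 rose (2.38%, against 0.293%), Hist1h2bm. The median log2 fold change was -0.25 over the members and -0.03 over all genes, and 33 of 42 members were below 0. By type, 3 of 11 H4, 2 of 7 H2A and 1 of 7 H3 genes tested fell, and the riser was an H2B gene.

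The H4 gene Hist1h4b ran from 0.618 to 1.13 CPM with a median of 0.892 in Dnmt3a ADD/ADD FGOs and from 0.670 to 4.85 with a median of 1.74 in wild-type FGOs. Its log2 fold change was -1.13 (SE 0.26, adjusted p = 0.00282). Hist1h3f ran from 16.8 to 42 CPM with a median of 33.4, against the wild-type median of 48.7, with a log2 fold change of -0.56 (SE 0.14, adjusted p = 0.00508). For each gene 2 of the 8 mutant libraries lay below the lowest wild-type library and the other mutant libraries overlapped the wild-type range. Both calls were kept without any single library, and both passed within the libraries above 80% mapped reads (Hist1h4b -0.93, adjusted p = 0.0311, and Hist1h3f -0.52, adjusted p = 0.0315). Within those under 80%, 3 mutant against 8 wild-type, neither passed (Hist1h4b -1.32, adjusted p = 0.103, and Hist1h3f -0.56, adjusted p = 0.075).

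The other calls were less even across libraries. Hist1h4d had a median of 3.92 CPM against 9.45 in wild-type FGOs (log2 fold change -1.28, SE 0.33, adjusted p = 0.00626), and Hist1h4i had 6.98 against 9.88 (-0.71, SE 0.19, adjusted p = 0.0101). Within the libraries under 80% mapped reads, 3 mutant against 8 wild-type, Hist1h4i differed by -1.23 (adjusted p = 0.0168) and Hist1h4d by -1.69 (adjusted p = 0.0493), while above 80% the differences were -0.20 (adjusted p = 0.472) and -0.91 (adjusted p = 0.136). Hist1h2aa fell by 0.28 on the log2 scale (SE 0.09, adjusted p = 0.024) and lost its call without Dnmt3a ADD/ADD library 8 (adjusted p = 0.0656). Hist1h2ai, an H2A gene with 10.0% unique stretches, stood at a median of 0.144 CPM against 0.414 (log2 fold change -1.75, SE 0.56, adjusted p = 0.0277) and lost its call without library 1, 3 or 8. It was not tested without wild-type FGO 3, 4, 7, 11 or 15. Its highest level in Dnmt3a ADD/ADD FGOs was 0.332 CPM. It therefore passed the filter on low counts only through the other FGO groups, which favours the finding of a fall.

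Hist1h2bm, an H2B gene, ran from 0.812 to 3.76 CPM with a median of 1.54 in Dnmt3a ADD/ADD FGOs and from 0.131 to 2.67 with a median of 0.735 in wild-type FGOs. The log2 fold change was 1.09 (SE 0.35, adjusted p = 0.0277), and the call was lost without Dnmt3a ADD/ADD library 3, 7 or 8 (highest adjusted p = 0.124). In Dnmt3L ADD/ADD FGOs it was 0.89 (SE 0.35, adjusted p = 0.123), not called, with 7 of 8 libraries above the wild-type median. Within the mapped-read classes Hist1h2bm did not pass, with differences of 1.19 (adjusted p = 0.0961) above 80% and 0.85 (adjusted p = 0.315) under it. The granulosa and cumulus list had 6 of 17 genes lower and 1 higher in this comparison, with a median log2 fold change of -0.77 and a summed level of 127 to 231 CPM. Of the 14 oocyte markers, 8 were lower and 0 higher, with a median of -0.28. The part of both lists in these results was not tested.

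In double mutant FGOs, calls went both ways. At adjusted p, 4 of 42 members fell (9.52%, against 6.74% of all genes), and 5 rose (11.9%, against 5.51%). With a fold change above 2, 4 fell (9.52%, against 1.48%), namely Hist1h1b, Hist1h2ab, Hist1h2bb and Hist1h3d, and 1 rose (2.38%, against 0.178%), Hist1h2bm. In double mutant FGOs the highest levels of the 4 that fell were 0.834, 0.311, 0.556 and 0.531 CPM. At such levels they passed the filter on low counts only through the other FGO groups. This favours the finding of a fall and bears on their share. The median log2 fold change of the members was 0.17 and that of all genes was -0.01, with 28 of 42 members above 0. Against the wild-type FGOs under 80% mapped reads the median of the members was -0.03, as was that of all genes, and it was 0.06 with the class as covariate. Of the 14 oocyte markers, 3 were higher and 0 lower in double mutant FGOs, with a median of 0.15, and their part was not tested.

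**Figure D5:**
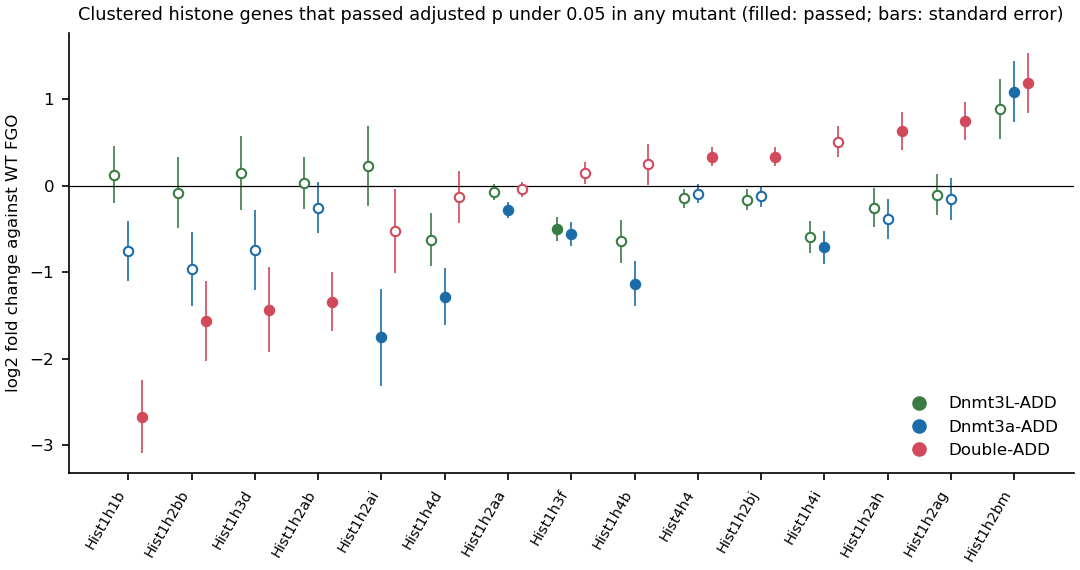
Log2 fold change of the clustered histone genes called in at least 1 mutant comparison, against wild-type FGOs, for the 3 mutant genotypes, with bars for 1 standard error. Hist1h1b lies at -2.67 in double mutant FGOs, and Hist1h2bm lies above 1 in both Dnmt3a ADD/ADD (1.09) and double mutant FGOs (1.19). In Dnmt3L ADD/ADD FGOs Hist1h2bm lies at 0.89 and was not called.

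The linker histone gene Hist1h1b had the lowest adjusted p of the family in this comparison, as it had during maturation. It ran from 0.133 to 0.834 CPM with a median of 0.305 in the 8 double mutant FGOs, from 0.425 to 6.59 with a median of 2.23 in wild-type FGOs, from 1.34 to 3.71 with a median of 2.77 in Dnmt3L ADD/ADD FGOs, and from 0.162 to 3.18 with a median of 1.08 in Dnmt3a ADD/ADD FGOs. All 8 double mutant libraries lay under the wild-type median and 6 lay under the lowest wild-type library, so the groups overlapped through 2 of them. The log2 fold change was -2.67 (SE 0.42, adjusted p = 4.5e-05), and leaving out any single library kept the adjusted p at 0.000281 or lower. Against the 8 wild-type FGOs that were also under 80% mapped reads, whose median was 2.25 CPM, it was -2.47 (adjusted p = 0.0148). Hist1h1b was the 1 member of 41 called in that fit (2.44% lower, against 0.877% of all genes). There 0 members were higher, against 0.167% of all genes. With the class as a covariate the log2 fold change of Hist1h1b was -2.59 (adjusted p = 0.000452). The granulosa and cumulus list moved the same way, with 10 of 17 genes lower and 1 higher, a median log2 fold change of -1.86 and a summed level of 136 to 159 CPM. Inha was at a median of 0.985 CPM in double mutant and 7.55 in wild-type FGOs, and the part of these cells in the fall of Hist1h1b was not tested.

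Of the other members that fell, Hist1h2ab ran from 0.150 to 0.311 CPM with a median of 0.220, against 0.260 to 1.31 with a median of 0.519 in wild-type FGOs, with 6 of 8 libraries below the lowest wild-type value. Its log2 fold change was -1.34 (SE 0.34, adjusted p = 0.00897), and -1.35 (adjusted p = 0.0368) with the class as a covariate, on 2 to 4 reads per double mutant library. It was not tested without wild-type FGO 8, 11, 15 or 16. Hist1h2bb (-1.56, SE 0.46, adjusted p = 0.0239) lost its call without double mutant library 5 or 8 (highest adjusted p = 0.0514), and Hist1h3d (-1.43, SE 0.49, adjusted p = 0.0456) lost it without any 1 of 13 libraries (highest adjusted p = 0.0972). Those libraries were wild-type FGOs 3, 8, 9, 11, 12, 14, 15 and 17 and double mutant FGOs 2, 3, 6, 7 and 8.

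The 5 members that rose were Hist1h2ag, Hist1h2ah, Hist1h2bj, Hist1h2bm and Hist4h4, genes for H2A, H2B and H4. Hist4h4 ran from 76.3 to 118 CPM with a median of 91.8 in double mutant FGOs and from 53.4 to 106 with a median of 69.5 in wild-type FGOs, a log2 fold change of 0.34 (SE 0.11, adjusted p = 0.035). Hist1h2bj stood at a median of 47.2 against 34.3 CPM (0.34, SE 0.11, adjusted p = 0.0421). The levels of these genes also differed by mapped-read class within the wild-type FGOs, where the median of Hist4h4 was 89.7 CPM in the 8 libraries under 80% and 61.5 in the 10 above, that of Hist1h2bj was 45 and 28.6, and that of Hist1h2ah was 8.15 and 3.86. Against wild-type FGOs under 80%, the double mutant differed by 0.09 for Hist4h4 (adjusted p = 0.848), 0.04 for Hist1h2bj (adjusted p = 0.927), 0.12 for Hist1h2ah (adjusted p = 0.917) and 0.22 for Hist1h2ag (adjusted p = 0.825).

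Hist1h2bm kept its size but not its call within the class. It ran from 0.596 to 4.61 CPM with a median of 1.96 in double mutant FGOs, a log2 fold change of 1.19 (SE 0.35, adjusted p = 0.0228) against all wild-type FGOs and 1.23 (adjusted p = 0.187) against those under 80%, and the call against all was lost without double mutant library 8 (adjusted p = 0.105). Without 1 library, calls were also lost for Hist1h2ag (double mutant 4 or 7, highest adjusted p = 0.0722), Hist4h4 (double mutant 1, 2, 4, 7 or 8, highest 0.0984), Hist1h2ah (16 libraries, highest 0.176) and Hist1h2bj (15 libraries, highest 0.0822). Those of Hist1h2ah were wild-type FGOs 8 to 18 and double mutant FGOs 2, 3, 4, 7 and 8. Those of Hist1h2bj were wild-type FGOs 9, 10, 11, 12, 14, 15, 16, 17 and 18 and double mutant FGOs 1, 2, 4, 5, 7 and 8.

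Summed levels of the family overlapped between genotypes. Dnmt3L ADD/ADD FGOs ran from 845 to 1132 CPM with a median of 1023, Dnmt3a ADD/ADD FGOs from 723 to 1088 with a median of 1008, and double mutant FGOs from 772 to 1231 with a median of 1125. The wild-type medians were 1100 under 80% mapped reads and 1004 above. Hist1h1a, the leading gene, was not called in any mutant, with log2 fold changes of 0.09 (adjusted p = 0.666), 0.06 (adjusted p = 0.747) and -0.23 (adjusted p = 0.15). Without Hist1h1a the medians were 596, 585 and 723 CPM, against 621 in wild-type FGOs.

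Contrasts between the mutants were added after the first results were seen. Set against each other, the FGOs of the single mutants gave 0 members that differed by edgeR at adjusted p (0 higher and 6 lower in the Dnmt3a mutant at an unadjusted p below 0.05, no other tool run), with 2 of all 15726 genes higher (0.0127%) and 0 lower. Double mutant FGOs had 15 of 42 members tested higher than Dnmt3a ADD/ADD FGOs (against 16% of all genes) and 2 of 42 lower (against 14.9%). Against Dnmt3L ADD/ADD FGOs, 11 of 42 were higher (against 12.8%) and 4 of 42 lower (against 11.4%). Here genotype and mapped-read class cannot be told apart. In both contrasts the share of members that were higher was above that of all genes, and the share that were lower was below it. Within the libraries under 80%, 8 double mutant against 3 Dnmt3a ADD/ADD, 4 of 41 members were higher (against 4.61% of all genes) and 1 lower (against 6.43%).

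The gene lower in that class was Hist1h1b, with a difference of -2.18 (SE 0.60, adjusted p = 0.0284), beside -1.93 (SE 0.46, adjusted p = 0.00177) over all libraries. Against Dnmt3L ADD/ADD FGOs it differed by -2.80 (SE 0.45, adjusted p = 0.000113). Higher in the same class were Hist1h4i (1.29, SE 0.28, adjusted p = 0.011), Hist1h2bk (0.43, SE 0.12, adjusted p = 0.0322), Hist1h2ah (1.09, SE 0.32, adjusted p = 0.0357) and Hist3h2a (1.93, SE 0.50, adjusted p = 0.0221). Hist1h4i ran from 12.3 to 24.0 CPM with a median of 17.9 in double mutant FGOs and from 6.20 to 11 with a median of 6.98 in Dnmt3a ADD/ADD FGOs, so that these groups did not overlap. It was not called against all wild-type FGOs (0.51, SE 0.18, adjusted p = 0.0562).

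Genes that supply histones outside the clusters, or make, process and escort histone mRNA and protein, were read from 3 lists. The shares of all genes at adjusted p against which their counts stand were 16.5% higher and 22.6% lower in MII oocytes, 3.07% and 3.06% with the Dnmt3L change, 8.06% and 7.61% with the Dnmt3a change, and 5.51% and 6.74% in double mutant FGOs. These lists were not read within a mapped-read class. Within the libraries under 80% the double mutant shares of all genes were 0.167% and 0.877%. Those of the Dnmt3L change above 80% were 4.39% and 3.45%. Among 12 replacement and other histone genes tested, 4 rose and 3 fell in MII oocytes. H2afx, which encodes the variant phosphorylated at DNA breaks, ran from 71.3 to 127 CPM with a median of 93.2 in FGOs and from 32 to 53 with a median of 43.8 in MII oocytes, groups that did not overlap (log2 fold change -1.19, SE 0.09, adjusted p = 4.94e-17). H2afz also fell (-1.05, SE 0.22, adjusted p = 0.000164). H1foo, the oocyte linker histone gene, rose slightly (0.17, SE 0.06, adjusted p = 0.015), and the H3.3 genes H3f3a (-0.01, adjusted p = 0.909) and H3f3b (0.07, adjusted p = 0.341) were not called. In the mutants, 2 rose and 0 fell with the Dnmt3L change, 0 rose and 1 fell with the Dnmt3a change (H3f3a, -0.33, SE 0.09, adjusted p = 0.00826), and in the double mutant the lowest adjusted p was 0.0745 (H2afx, 0.22, SE 0.09).

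Of 28 genes for transcription and 3′ processing of histone mRNA, 1 rose and 8 fell in MII oocytes, among them Zfp473, a processing factor that binds the stem-loop complex (-1.21, SE 0.18, adjusted p = 4.97e-07), and Zcchc11, a uridylyl transferase (-3.50, SE 0.41, adjusted p = 7.88e-10). Slbp, the stem-loop binding protein gene, ran from 428 to 683 CPM with a median of 597 in FGOs and from 565 to 674 with a median of 649 in MII oocytes (0.13, SE 0.06, adjusted p = 0.0662). Npat, which encodes the activator of clustered histone transcription, differed by 0.03 (adjusted p = 0.784) in MII oocytes and by -0.29 (SE 0.08, adjusted p = 0.00848) in Dnmt3a ADD/ADD FGOs, where 5 genes of the list rose and 5 fell. The counts were 0 and 3 in Dnmt3L ADD/ADD and 1 and 4 in double mutant FGOs. Of 24 histone chaperone genes, 10 rose and 3 fell in MII oocytes, 2 rose and 0 fell with the Dnmt3L change, 2 rose and 1 fell with the Dnmt3a change, and 0 rose and 6 fell in double mutant FGOs, among them Nasp, a chaperone of H1 and H3 (-0.35, SE 0.09, adjusted p = 0.00859).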

How the data were processed

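Single FGO and MII oocytes were sequenced after SMART-Seq HT amplification. The authors aligned reads to mm10 with STAR and deposited raw counts per gene for 52 libraries and 51734 genes, in tables with featureCounts columns. HTSeq is also named. The annotation release, the strand setting and the treatment of reads with several positions were not given in the sources used here. The embryo tables were not used here.

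The 70 members and all gene lists were chosen with earlier results of these data known. Genes with enough reads (filterByExpr, minimum count 10) were normalised by TMM and tested by the edgeR 4.0.16 quasi-likelihood test (R 4.3.3), with 1 coefficient per group: mutants in a fit of 42 FGO libraries, maturation in a fit of 52. P-values were adjusted by Benjamini-Hochberg over all genes tested. A gene was called at adjusted p below 0.05, with a fold change above 2 where stated. Levels are CPM with TMM, per kilobase of the deposited length where genes are compared. The common biological coefficient of variation was 25.2% for FGOs and 23.8% over all oocytes. Total counts of 7832458 to 23739871 per library set the counting error.

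Named genes were those called in each comparison, up to 25, the 3 members of each type with the highest level per kilobase, and from the supply lists the 5 with the lowest p in each comparison or Slbp, Npat, H1foo, H3f3a and H3f3b. Alternatives were RLE normalisation, library totals, no filter, DESeq2 1.42.0, edgeR's exact test, 2-group fits, a replicate block, the mapped-read class as covariate or subset, and leaving out each library. The scripts were tested on simulated data. Libraries were treated as unpaired. Of 82 pairs of same-numbered libraries, 15 had a correlation of deviations over 0.1. Differently numbered libraries were not compared, so this cannot show whether the numbers pair libraries. Stem-loops were read from GENCODE M21 transcripts and promoters from RefSeq, in which 62 members matched.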

Additional observations from a re-analysis of the deposited data

Results flagged for a closer look

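In groups of 4 to 10 libraries, a library was marked where its distance to the nearest other library was large for the range of the group. This marked 14 of 145 combinations of a gene or sum with a group (9.66%), and chance marks about 1 in 20. All values are CPM.

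In Dnmt3a ADD/ADD FGOs, library 4 was lowest for all members summed, at 723 against 924 for the next, for H1 summed (326 against 437), for H4 summed (123 against 153) and for Hist1h4c (28 against 40.1). In the same group, Hist1h1c was highest in library 8 (36.2 against 22.3), Hist1h2bh in library 6 (16.6 against 11.2) and Hist1h4n in library 1 (4.17 against 2.32). In double mutant FGOs, Hist1h2ah was highest in library 7 (17.4 against 11) and Hist1h2bm in library 8 (4.61 against 2.43). In MII oocytes, library 4 was lowest for Hist1h2aa (35.5 against 49.2) and for H2A summed (44.6 against 63.7), Hist1h4n was lowest in library 10 (0.175 against 0.896), Hist4h4 was highest in library 5 (76.6 against 60.2), and H1 summed was highest in library 1 (565 against 494).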

How the results depend on the processing

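Of the values of named members, 0 changed sign under any alternative run. The median over all members did: in the double mutant from 0.17 to -0.03 within the libraries under 80% mapped reads, and for Dnmt3L ADD/ADD from -0.06 to 0.07 with the class as covariate and 0.03 within the libraries above 80%. With a fold change above 2, the maturation comparison called 13 members, and 26 with no filter beyond 1 count, 25 with no fold minimum, 8 within the libraries under 80% mapped reads, and 12 to 14 without 1 library. With no filter, 40% of members were lower, against 9.8% of all genes. With no fold minimum the shares were 62.5% and 22.6%, and under 80% they were 20% and 6.55%. In these fits 0 members were higher. For Dnmt3L ADD/ADD the count of 0 became 1 under the replicate block and 1 with no fold minimum, and was 0 to 1 without 1 library (1 without wild-type FGO 11). Under the block 2.38% of members were lower, against 2.58% of all genes, and 0 higher, against 0.235%. With no fold minimum 2.38% were lower, against 3.06%, and 0 higher, against 3.07%. For Dnmt3a ADD/ADD the count of 4 became 7 with no fold minimum, 1 within the libraries above 80% mapped reads, 2 within those under 80%, and 2 to 4 without 1 library (2 without Dnmt3a ADD/ADD library 3 or 8). Above 80%, 2.27% of members were lower, against 0.831% of all genes. Under 80% the shares were 4.88% and 1.35%. In both classes 0 members were higher, against 0.361% and 0.148% of all genes. For the double mutant the count of 5 became 2 with the class as covariate, 1 under the replicate block, 2 with only the 2 groups fitted, 9 with no fold minimum, 1 within the libraries under 80%, and 3 to 6 without 1 library (3 without wild-type FGO 8, 11 or 15 or double mutant library 8). With the covariate, 4.76% of members were lower, against 1.16% of all genes. Under the block the shares were 2.38% and 0.776%, and with 2 groups 2.56% and 1.15%. Under 80% they were 2.44% and 0.63%. Of these fits only that of 2 groups called a member higher (against 0.145% of all genes). The cause was not tested, except that fits within a class and of 2 groups hold fewer libraries. Under the replicate block the maturation count was 14, all lower (35% of members, against 10% of all genes). That of Dnmt3a ADD/ADD was 5, with 4 lower (9.52%, against 4.22%) and 1 higher (against 0.356%). Same-numbered libraries correlated from -0.65 to 0.57 over 13302 genes. In wild-type FGOs the number followed the mapped-read class, with libraries 1 to 8 under 80% and 9 to 18 above. The mutants were numbered 1 to 8. Under the block their contrasts with wild-type FGOs therefore rested on the wild-type libraries under 80%.

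Summed levels without Hist1h1a had medians of 621 CPM (wild-type FGOs), 596 (Dnmt3L mutant), 585 (Dnmt3a mutant), 723 (double mutant) and 516 (MII), and the sum of all members was 1017 in the 3 MII libraries under 80%. Of 42 values of named members, 42 kept their call under RLE normalisation, DESeq2 and the exact test, 39 under library totals, 33 with no filter, 33 with the class as covariate and 30 under the replicate block. Fewer could be refitted in parts of the data, where 29 of 36 kept it with only 2 groups fitted, 16 of 32 within the libraries above 80% and 13 of 39 within those under 80%. Members with a few reads per library, such as Hist1h3b and Hist1h2ab, and members that share most of their sequence are limited by depth and read length.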
